A study of Homo sapiens with 2 samples.

Results

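SR proteins, heterogeneous nuclear ribonucleoproteins (hnRNPs) and core splicing factors were followed in the natural killer cell line NK92. Members were the rows of the deposited gene table with the biotype protein-coding and a symbol of the SRSF, HNRNP, SF3A, SF3B, U2AF or TRA2 series. This rule, which uses names and no measured value, gave 52 genes of the 46425 listed, namely 12 SR, 2 TRA2, 25 hnRNP, 3 SF3A, 6 SF3B and 4 U2AF genes.

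NK92 is an established human line derived from an aggressive natural killer cell leukemia, and PPMX-T003 is an antibody that blocks transferrin receptor 1, the receptor for the uptake of iron on transferrin. The exposed dish had PPMX-T003 at 10 µg/mL for 6 h and the unexposed dish had none, and both came from 1 culture that had been kept for 18 h. Poly(A) RNA of each dish was sequenced as 1 stranded library, so that none of the differences has a replicate check. The deposited columns carry the names 0 h and 6 h although the methods state the same additional culture time for both dishes, and 0 h was taken to be the unexposed dish. A difference in harvest time therefore cannot be told apart from the exposure. Counts totalled 46766416 in the unexposed and 43178462 in the exposed library. All 10 natural killer cell markers examined had counts in both libraries, summing to 2823 and 3144 CPM (counts relative to the library total, after TMM scaling between the libraries), with NKG7 as the most abundant. The 7 T cell markers summed to 439.9 and 469 CPM. Of these, CD3D, CD3G, CD8A and CD8B had 0 counts in both libraries, CD4 had 4 and 0 counts, and TRAC, the constant segment of the T cell receptor alpha chain, had 1501 and 1312 counts. CD3E, the most abundant of them and also transcribed by natural killer cells, had 19080 and 18942 counts. The markers of B cells summed to 0.342 and 0.278 CPM, those of myeloid cells to 5.06 and 4.54 CPM, those of epithelial cells to 0.0427 and 0 CPM, and those of erythroid cells to 0 in both.

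Splicing removes introns from pre-mRNA through the stepwise assembly of small nuclear ribonucleoproteins on the splice sites. U2AF binds the polypyrimidine tract and the AG at the end of the intron and helps to recruit the U2 particle, whose SF3A and SF3B subunits hold it on the branch site. SR proteins and the related TRA2 proteins carry an RNA-binding domain and a region rich in arginine and serine, and typically promote the use of the exons to which they bind. The hnRNPs coat nascent transcripts and often counteract this, and several hnRNPs and SR proteins adjust their own mRNA by splicing it into forms that are degraded.

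The genes were abundant, and few differed by much between the libraries. Of the 52 members, 47 had at least 20 counts over both libraries and were compared. SRSF12 and the HNRNPC-like genes HNRNPCL1, HNRNPCL2, HNRNPCL3 and HNRNPCL4 had 0 counts in both, where the floor was 3 counts per library. On the TPM scale, which divides reads by transcript length and library total and so allows genes of different length to be compared, the median of the 47 was 290 in the unexposed and 287 in the exposed library, whereas that of all 13665 genes with at least 20 counts was 16 in both. In the unexposed library, 46 of the 47 lay above that median and 37 lay above 138 TPM, the level that 10% of all genes tested exceed. The members took 2.24% of all counts without and 2.29% with PPMX-T003.

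The order of the levels was nearly the same in both libraries (Spearman's rho 0.995 over 47 genes, which share the same libraries). In both, HNRNPA2B1 stood first with 1795 and 1596 TPM, followed by HNRNPA1 with 1192 and 1155 TPM, HNRNPK with 816 and 767 TPM, HNRNPC with 775 and 750 TPM and HNRNPAB with 713 and 725 TPM. These 5 hnRNP genes held 31.5% of the summed TPM of the members without and 30.01% with PPMX-T003. Summed over each subfamily, the hnRNPs reached 10795 and 10502 TPM, the SR genes 2604 and 2659 TPM, the SF3B genes 1500 and 1481 TPM and the U2AF genes 958 and 1042 TPM. The SF3A genes summed to 527 TPM in both libraries and the TRA2 genes to 417 and 427 TPM. The hnRNP genes thus made up most of the RNA of the group, and U2AF1L4, at 4 and 9 TPM, was its least abundant detected member.

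**Figure D1:**
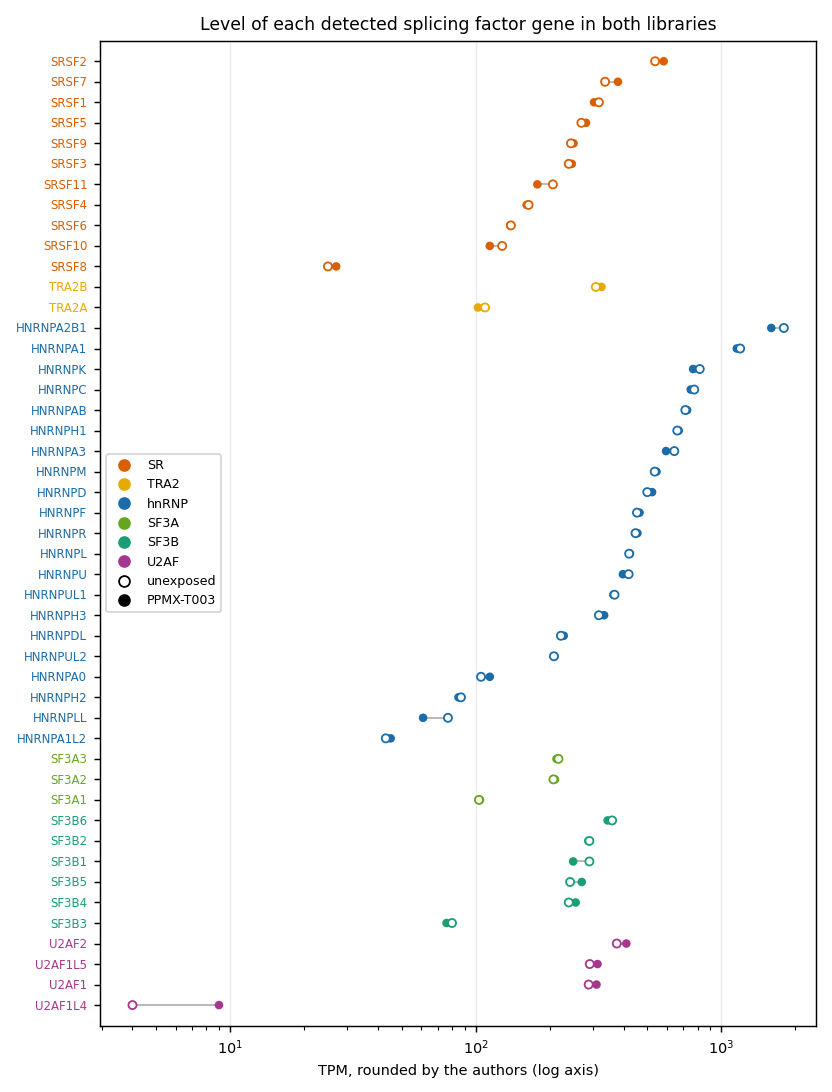
Deposited TPM (log axis) of the 47 detected members, by subfamily, in the unexposed library (open circles) and the library exposed to PPMX-T003 (filled circles). The levels run from HNRNPA2B1 at 1795 and 1596 TPM down to U2AF1L4, whose circles at 4 and 9 TPM lie farthest apart on the log axis.

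Changes were computed from the counts, as the log2 ratio of TMM-scaled CPM in the exposed against the unexposed library, and a member was counted as changed from 1.2-fold. Its interval is a 95% Clopper-Pearson interval, taken on how the gene's reads divide between the libraries, which covers counting error only and compares the libraries, not the conditions. By this threshold 1 member rose and 1 fell, against 12.2% higher and 12.4% lower among all genes with at least 20 counts. The gene that rose was U2AF1L4, and the gene that fell was HNRNPLL. Of the 46 members with at least 1000 counts, which leave out U2AF1L4, 0 rose and 1 fell. Among all 8359 genes above that floor 2.79% were higher and 5.11% lower. Only the floor was matched, not the depth of the members.

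Below that threshold the changes leaned upwards. The median log2 fold change of the 47 members was 0.073, whereas that of all genes tested was -0.0020 and that of genes with at least 1000 counts was -0.0098. The interval lay wholly above 0 for 28 members, against 21.8% of all genes tested and 27.8% of those with at least 1000 counts. It lay wholly below 0 for 9 members, against 23.9% and 32.1%, and it held 0 for the other 10. At least 1.1-fold higher were 10 members, against 24.0% of all genes and 15.2% of the deeper ones, and at least 1.1-fold lower was 1, HNRNPLL, against 25.2% and 20.1%. These 10 were SRSF2, SRSF7, SRSF8, SF3B4, SF3B5, HNRNPA0 and the 4 U2AF genes. With the near-identical copies U2AF1 and U2AF1L5 summed as 1 measurement, 27 of 46 intervals lay above 0 and 9 measurements were at least 1.1-fold higher. Without U2AF1L4 the changes of the members had an SD of 0.097, smaller than the 0.16 of all genes with at least 1000 counts. Whether the dishes differed in cell number or in RNA per cell cannot be told from such bulk libraries. Every change is relative to the counted poly(A) reads of its library, after TMM scaling.

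**Figure D2:**
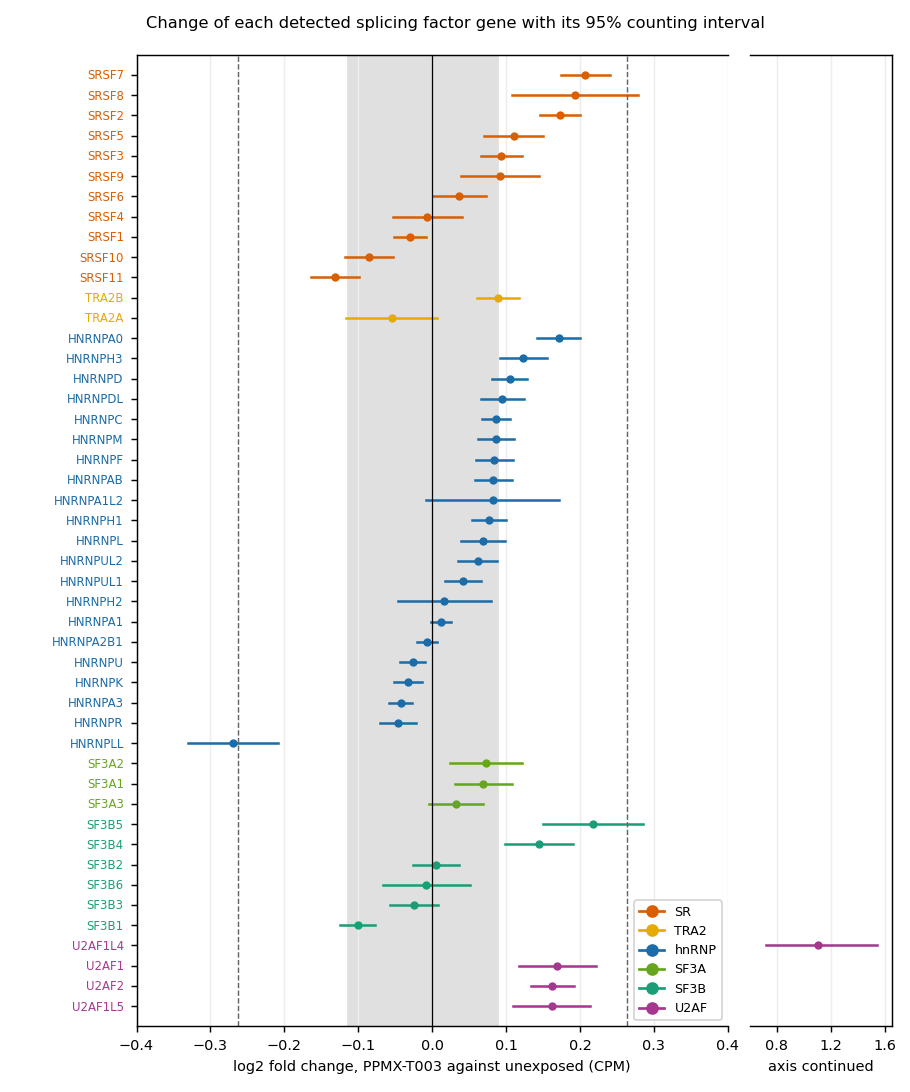
Log2 fold change in CPM, exposed against unexposed, of the 47 detected members by subfamily, with 95% counting intervals as horizontal lines, on an axis that is continued at the right for U2AF1L4. The dashed lines mark 1.2-fold and the grey band the middle 50% of all genes with at least 1000 counts, and only HNRNPLL and U2AF1L4 lie beyond the dashed lines.

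The SR genes divided. Of the 11 with counts, 7 had an interval above 0 and 3 had one below 0, against 27.8% and 32.1% of all genes with at least 1000 counts. The interval of 1 held 0, and the median was 0.092. SRSF7, a regulator of alternative splicing and mRNA export, went from 14250 to 15165 counts, a log2 fold change of 0.21 (interval 0.17 to 0.24). SRSF2, which binds exonic enhancers and stays in the nucleus, went from 21795 to 22658 counts (0.17, 0.15 to 0.20). SRSF8, a paralog of SRSF2 that had much lower levels, went from 2200 to 2319 counts (0.19, 0.11 to 0.28). These 3 genes were the highest of the subfamily, and none reached 1.2-fold.

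At the other end stood SRSF11 and SRSF10. SRSF11 went from 17081 to 14375 counts (-0.13, -0.16 to -0.099), and SRSF10, which acts as a repressor when dephosphorylated, from 16390 to 14241 counts (-0.085, -0.12 to -0.053). SRSF1, the founding member of the family, was lower by less, with 35416 and 31980 counts (-0.030, -0.052 to -0.0081).

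SRSF3, the smallest of the family, had 20939 and 20597 counts (0.093, 0.066 to 0.12), and SRSF5 had 10072 and 10022 counts (0.11, 0.070 to 0.15). SRSF9 had 5856 and 5755 counts (0.092, 0.039 to 0.14). All 3 had fewer reads in the exposed library, which was the shallower one, and were higher in CPM. SRSF6 had 12722 and 12032 counts (0.037, 0.00073 to 0.073), at the edge of its counting error, and SRSF4 had 7789 and 7149 counts (-0.0064, -0.053 to 0.040), which holds 0. All 3 of SRSF4, SRSF6 and SRSF9 depended on the processing. After subtraction of a fit on the length and GC content of transcripts, SRSF6 was at 0.17, SRSF4 at -0.050 and SRSF9 at 0.014, and with the longest transcripts in that fit they were at 0.14, -0.072 and -0.025. SRSF3 was at 0.16 with either.

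The TRA2 genes, sequence-specific activators of exons, lay apart. TRA2B went from 20239 to 19849 counts (0.089, 0.061 to 0.12), while TRA2A, its less abundant paralog, went from 4453 to 3952 counts (-0.055, -0.12 to 0.0072), which holds 0. After subtraction of the fit TRA2A was at 0.025 and TRA2B at 0.13, and with the longest transcripts at -0.019 and 0.14, so that the sign of TRA2A was not settled. The ratio of TRA2A to TRA2B on the TPM scale was 0.354 without and 0.314 with PPMX-T003. The counts of this pair moved apart by -0.14 on the log2 scale (interval -0.21 to -0.076), and by -0.10 after subtraction of the fit and -0.16 with the longest transcripts. Likewise SRSF11 against SRSF7 moved by -0.34 (-0.38 to -0.29), with TPM ratios of 0.613 and 0.470, a pair chosen after the values were seen. A ratio within each library does not depend on the scaling between libraries.

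The arginine and serine stretches of these genes show how differently related proteins are encoded. The 7 genes shown are the highest SR genes, the lowest ones and both TRA2 genes, of which TRA2B lay mid-range at 0.089. For each, the 120 coding bases richest in arginine and serine codons are given from GENCODE release 29 (build GRCh38). The bases are joined across exons and read 5′ to 3′ on the coding strand, with every arginine and serine codon in capitals. They lie at chr17:76736359-76736812 (SRSF2, minus strand), chr11:95067569-95067688 (SRSF8, plus strand), chr2:38748133-38749548 (SRSF7, minus strand), chr1:23971596-23971938 (SRSF10, minus strand), chr1:70239456-70244738 (SRSF11, plus strand), chr7:23516444-23521741 (TRA2A, minus strand) and chr3:185925551-185926644 (TRA2B, minus strand).
SRSF2: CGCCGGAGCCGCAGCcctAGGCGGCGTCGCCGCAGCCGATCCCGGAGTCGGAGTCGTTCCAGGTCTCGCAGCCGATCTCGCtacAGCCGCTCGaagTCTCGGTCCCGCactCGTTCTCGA
SRSF8: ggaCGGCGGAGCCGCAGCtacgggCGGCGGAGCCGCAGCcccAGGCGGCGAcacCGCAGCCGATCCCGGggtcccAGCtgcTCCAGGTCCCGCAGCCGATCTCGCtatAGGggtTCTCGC
SRSF7: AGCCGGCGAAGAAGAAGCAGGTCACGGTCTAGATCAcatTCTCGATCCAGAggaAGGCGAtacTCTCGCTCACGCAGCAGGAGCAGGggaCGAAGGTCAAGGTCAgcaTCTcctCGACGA
SRSF10: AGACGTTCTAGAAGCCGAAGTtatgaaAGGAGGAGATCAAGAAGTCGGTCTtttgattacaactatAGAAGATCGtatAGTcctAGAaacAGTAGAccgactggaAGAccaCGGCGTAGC
SRSF11: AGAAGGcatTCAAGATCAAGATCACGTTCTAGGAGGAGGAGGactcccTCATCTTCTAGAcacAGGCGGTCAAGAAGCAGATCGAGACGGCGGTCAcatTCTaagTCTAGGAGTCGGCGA
TRA2A: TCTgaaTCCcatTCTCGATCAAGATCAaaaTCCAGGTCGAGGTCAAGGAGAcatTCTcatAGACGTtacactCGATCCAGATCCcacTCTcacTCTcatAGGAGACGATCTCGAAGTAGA
TRA2B: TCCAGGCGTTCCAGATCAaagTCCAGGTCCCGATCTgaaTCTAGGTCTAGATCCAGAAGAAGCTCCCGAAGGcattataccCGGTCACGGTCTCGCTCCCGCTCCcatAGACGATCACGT

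Of the 40 codons in each window, 36 encode arginine or serine in SRSF2, 30 in SRSF8, 34 in SRSF7, 26 in SRSF10, 34 in SRSF11, 30 in TRA2A and 34 in TRA2B. The share of those codons that end in G or C was 66.7% in SRSF2 and 83.3% in SRSF8, against 26.9% in SRSF10, 38.2% in SRSF11 and 30% in TRA2A. SRSF7 and TRA2B lay between, at 44.1% and 50%. The GC content of the windows ran from 44.2% in SRSF10 and 45.8% in TRA2A to 70% in SRSF2 and 75% in SRSF8. SRSF7, the highest of the SR genes, has a window of 57.5% and that of SRSF11, the lowest, is at 51.7%. These 7 genes, except TRA2B, lay at the ends of the range and were picked with their changes known, so the windows are shown as a description. Over all 13 SR and TRA2 genes with counts, the change had a Spearman's rho of 0.22 with transcript GC content and 0.14 with the GC content of the last codon positions.

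Base composition was also set beside the changes of all members. Genes with at least 1000 counts were divided into 5 classes of equal size by transcript GC content, and their median log2 fold change went from -0.11 in class 1 (31.8% to 41.9% GC) to 0.10 in class 5 (57.8% to 72.7% GC). In class 1 the 11 members had a median of -0.026. In classes 2, 3 and 4 the 12, 8 and 12 members had medians of 0.049, 0.081 and 0.084, above the medians of -0.065, -0.016 and 0.052 of all genes there. Class 5 held 3 members, with a median of 0.073, below that of its class. With 20 classes in place of 5, 36 of the 46 members with this depth lay above the median of their own class. Across the 46 genes the change had a Spearman's rho of 0.34 with transcript GC content and 0.45 with the GC content of the last codon positions, against 0.53 with transcript GC content over 8297 genes. Genes are not independent replicates, and these points share both libraries.

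A robust regression of the changes on transcript length and GC content, fitted to 10161 genes with at least 200 counts, was removed as an alternative. Its length was the median over all annotated protein-coding transcripts of a gene, short ones included. That median was 723 bases for SF3B1 and 491 for SF3B3, and it need not be the length of the transcripts that were read. The members then had a median of 0.061, and 4 of them were at least 1.2-fold higher and 0 lower, against 8.82% higher and 10.2% lower of all genes tested and 1.55% and 3.31% of those with at least 1000 counts. HNRNPA0 was then at 0.32, SRSF7 at 0.29, SRSF8 at 0.28 and U2AF1L4 at 1.01, while SRSF11 was at -0.032, SRSF10 at -0.026 and HNRNPLL at -0.16. When the longest transcripts were used for it instead, 2 were higher and 0 lower, against 8.26% and 10.5% of all genes tested and 1.41% and 2.57% of the deeper ones. HNRNPA0 was then at 0.32, SRSF7 at 0.26, just short of 1.2-fold, and HNRNPLL at -0.17. Single changes depended on this step. Of the 37 members with an interval outside 0, the regression turned the sign of 6, made 12 smaller and 5 larger by over 1.5 times, and left 14 within that range. With the longest transcripts these numbers were 8, 11, 6 and 12. Of the 10 members whose interval held 0, it then lay above 0 for 5 and below for 3, and with the longest transcripts above 0 for 4 and below for 3. The part of base composition in any single change was not tested.

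**Figure D3:**
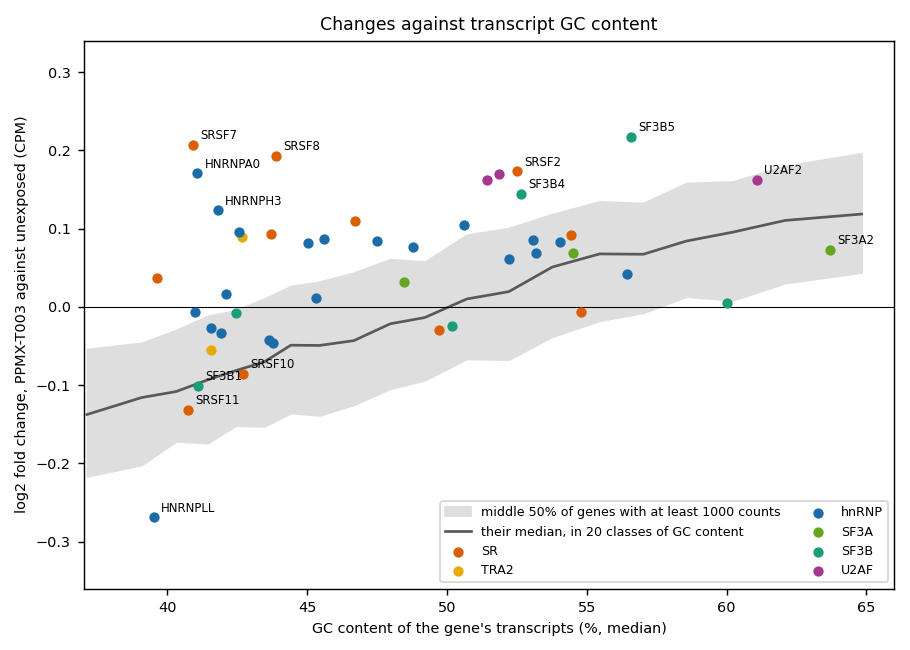
Log2 fold change in CPM, exposed against unexposed, against the median GC content of each gene's transcripts, for the 46 members with at least 1000 counts. The line and band give the median and the middle 50% of all genes with at least 1000 counts in 20 classes of GC content, and 36 of the 46 members lie above the line.

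The 3 most abundant hnRNP genes differed little in their counts. HNRNPA2B1, which shuttles mRNA and recognises splicing silencers, had 99517 and 91297 counts (-0.0071, -0.020 to 0.0059), and its paralog HNRNPA1 had 88349 and 82122 counts (0.012, -0.0019 to 0.026). HNRNPK, a KH-domain protein that binds cytidine-rich RNA, had 47159 and 42486 counts (-0.033, -0.052 to -0.014). All 3 count changes were smaller in size than the median change of the members, but that of HNRNPA2B1 was 0.10 after removal of the regression, and its TPM ratio was -0.17.

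HNRNPC, which forms tetramers on uridine tracts, had 47169 and 46175 counts (0.087, 0.068 to 0.11), and HNRNPAB had 25854 and 25243 counts (0.083, 0.058 to 0.11). HNRNPA0, an intronless gene of the A group, was the highest of the subfamily, with 19016 and 19737 counts (0.17, 0.14 to 0.20). It was followed by HNRNPH3 with 15790 and 15858 counts (0.12, 0.092 to 0.16). HNRNPD, which encodes the AU-rich element binding protein AUF1, had 29606 and 29348 counts (0.10, 0.081 to 0.13). After removal of the regression HNRNPAB was at 0.042 and with the longest transcripts in it at 0.00089, HNRNPD was at 0.061 and 0.092, and HNRNPH3 at 0.20 and 0.16. Of the 21 hnRNP genes detected, 12 had an interval above 0 and 5 had one below 0, against 27.8% and 32.1% of all genes with at least 1000 counts. The intervals of 4 held 0, and the median was 0.069.

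HNRNPLL was the member that fell. It is known in lymphocytes as the factor that switches CD45 splicing on activation, and it lies at chr2:38561978-38603586 on the minus strand. It had 4971 counts (77 TPM) without and 3803 counts (61 TPM) with PPMX-T003, a log2 fold change of -0.27 with an interval of -0.33 to -0.21. The interval reaches below 1.2-fold, and with upper-quartile scaling the change was -0.26, just short of that threshold. The GC content of its transcripts, 39.5%, is that of class 1, and its change was below the median of that class. Relative to HNRNPL, the paralog that binds similar CA-rich motifs and had 18336 and 17733 counts (0.069, 0.039 to 0.099), HNRNPLL moved by -0.34 (-0.41 to -0.27). After removal of the regression this difference was -0.20, and with the longest transcripts in it -0.19.

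Below 0 beyond counting error but far smaller were HNRNPR with 30055 and 26835 counts (-0.046, -0.070 to -0.022) and HNRNPA3 with 71035 and 63577 counts (-0.043, -0.058 to -0.027). The direction of both depended on the processing, since after removal of the regression HNRNPR was at 0.025 and HNRNPA3 at 0.015. The same held for HNRNPK, at 0.049. HNRNPU (-0.026 and 0.072) and HNRNPUL1 (0.041 and -0.0042) also changed sign.

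Near-identical gene copies and shared exons touch 15 of the detected members. HNRNPA1 has 9 near-identical genes in the annotation and HNRNPA3 has 5, between which the counting could divide reads. Summed over HNRNPA1, HNRNPA1L2 and 71 pseudogene rows named after HNRNPA1, counts were 94943 and 88709 (0.019, 0.0061 to 0.032), close to HNRNPA1 alone. HNRNPA3 with its pseudogenes gave 72050 and 64471 counts (-0.043, -0.058 to -0.028). Without all 15 such members, the remaining 32 had a median of 0.080. Of these, 20 had an interval above 0 and 6 had one below 0, against 27.8% and 32.1% of all genes with at least 1000 counts.

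The SF3A genes, which encode the trimer that joins the U2 particle to the branch site region, showed small changes of 1 sign. SF3A1 had 10937 and 10578 counts (0.069, 0.030 to 0.11) and SF3A2 had 6990 and 6778 counts (0.073, 0.024 to 0.12). SF3A3 had 12509 and 11791 counts (0.032, -0.0044 to 0.068), which holds 0, and was at 0.075 after removal of the regression. SF3A2 has transcripts of 63.7% GC, the highest of the detected members, and was at -0.067 after removal of the regression.

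The SF3B genes had no common direction. SF3B1, the scaffold that clamps the branch site and is often mutated in myeloid and lymphoid neoplasms, went from 30642 to 26342 counts (-0.10, -0.12 to -0.077). SF3B5 went from 3473 to 3723 counts (0.22, 0.15 to 0.28), and SF3B4, which contacts the RNA upstream of the branch site, from 7699 to 7846 counts (0.14, 0.099 to 0.19). These 3 differed beyond counting error, and SF3B1 against SF3B5, a pair chosen after the values were seen, moved by -0.32 (-0.39 to -0.25). That difference was -0.18 after removal of the regression and -0.016 with the longest transcripts in it, where SF3B5 was at 0.12 and 0.040 and SF3B4 at 0.11 and 0.086.

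The intervals of the other SF3B genes held 0. SF3B3 had 16157 and 14646 counts (-0.024, -0.057 to 0.0080) and SF3B2 had 17907 and 16569 counts (0.0052, -0.025 to 0.036). SF3B6, which encodes the subunit that reaches the branch site adenosine, had 4869 and 4464 counts (-0.0080, -0.067 to 0.051). The median of the subfamily was -0.0014, and its sign depended on the scaling, with 0.011 under upper-quartile scaling. SF3B1, whose transcripts have 41.1% GC, was at -0.062 after removal of the regression and at 0.024 with the longest transcripts in it. SF3B2 was then at -0.11 and -0.078, SF3B3 at -0.083 and 0.058, and SF3B6 at 0.022 and -0.063. The direction of SF3B1, SF3B2, SF3B3 and SF3B6 was thus not settled.

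The U2AF genes were the only subfamily with all intervals above 0, over 4 genes that amount to 3 measurements. Of all genes tested, 21.8% had an interval above 0. U2AF2, which encodes the large subunit that binds the polypyrimidine tract, went from 18959 to 19563 counts (0.16, 0.13 to 0.19). U2AF1, which encodes the small subunit that reads the AG, went from 5773 to 5986 counts (0.17, 0.12 to 0.22), and the near-identical copy U2AF1L5 on the same chromosome from 5783 to 5963 counts (0.16, 0.11 to 0.21). The last 2 are listed at chr21:43092956-43107587 and chr21:6484623-6499261, and since their reads were nearly evenly divided they cannot be told apart and count as 1 measurement. Their sum went from 11556 to 11949 counts (0.17, 0.13 to 0.20).

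U2AF1L4, a paralog of U2AF1, was the member that rose, from 76 to 153 counts, a log2 fold change of 1.11 with an interval of 0.72 to 1.54. It had the fewest reads of the detected members. The gene lies at chr19:35742464-35745445 on the minus strand and shares exons there with the annotated gene AD000671.2, so that the counting could divide reads there between genes, and its change is uncertain for that reason. The subfamily's median was 0.17 with and 0.16 without the members that share exons or have near-identical copies, which leaves U2AF2 alone. It was 0.12 after removal of the regression and 0.098 with the longest transcripts in it, and U2AF2 was then at 0.060 and 0.065.

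The factors around these genes were examined through 9 lists with 157 genes, of which 152 had at least 20 counts. Their median was 0.018, with 2 genes at least 1.2-fold higher and 1 lower, and with 61 intervals above 0 and 38 below. Among all genes with at least 1000 counts, 2.79% were at least 1.2-fold higher and 5.11% lower. Intervals lay above 0 for 27.8% and below 0 for 32.1% of those genes, and for 21.8% and 23.9% of all genes tested. Of the 27 genes changed most in these lists, 3 in each by the interval bound nearest to 0, removal of the regression made 20 smaller by over 1.5 times and turned the sign of 0. With the longest transcripts 18 were smaller by that much and 1 changed sign. The members' own regulators lay lowest. The SR protein kinases, phosphatases and import factors had a median of -0.091. Of their 10 intervals 5 lay below 0 and 2 above, against 32.1% and 27.8% of all genes with at least 1000 counts. PRPF4B, a nuclear kinase that acts on the tri-snRNP, had 7997 and 6269 counts (-0.23, -0.28 to -0.19), and SRPK1, a mainly cytoplasmic SR protein kinase, had 12130 and 9974 counts (-0.17, -0.20 to -0.13). PPP1CA, a catalytic subunit of protein phosphatase 1, was higher, with 11775 and 12451 counts (0.20, 0.16 to 0.23). The kinases had no common direction. CLK4 was higher, with 432 and 468 counts (0.23, 0.041 to 0.42), SRPK2 (-0.20) and CLK3 (-0.11) were lower, and the intervals of CLK1 and CLK2 held 0. The list's median was -0.15 in TPM and -0.081 after removal of the regression. The median of this mixed list of kinases, phosphatases and import factors thus stayed opposite in sign to that of the SR genes.

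Highest were the Sm and LSm proteins, which form the rings of the spliceosomal particles. Their median was 0.090. Of their 14 intervals 9 lay above 0 and 1 below, against 27.8% and 32.1% of all genes with at least 1000 counts. SNRPD2 had 9810 and 10804 counts (0.26, 0.22 to 0.30). LSM2 had 2066 and 2198 counts (0.21, 0.12 to 0.29) and LSM4 had 5014 and 5208 counts (0.17, 0.12 to 0.23). None of these reached 1.2-fold, although SNRPD2 did with upper-quartile scaling (0.268), and the list's median was 0.062 after removal of the regression and 0.042 with the longest transcripts in it.

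The remaining lists lay between. SR-related coactivators and exon junction factors had a median of -0.013, with SON, an organiser of nuclear speckles, at -0.19, BCLAF1 at -0.17 and SCAF1 at 0.26. SCAF1 passed 1.2-fold with upper-quartile scaling (0.267). With the regression removed SON was at -0.094, BCLAF1 at -0.025 and SCAF1 at 0.091. U1 snRNP and LUC7-like genes had a median of 0.031, with SNRNP70, the U1 70K protein, at 0.18, and its median was -0.012 after removal of the regression. U2 snRNP and branch site partners had a median of 0.031, and the helicases DDX46 (-0.22) and DHX15 (-0.17) and the U2 factor U2SURP (-0.17) were its genes changed most by the interval bound nearest to 0. By that bound these were SART1 (0.16), PRPF31 (0.17) and SNU13 (0.16) for the tri-snRNP, whose median was 0.045. For the Prp19 complex and catalytic step, with a median of 0.032, they were AQR (-0.15), CWC27 (-0.17) and CWC15 (0.16). After removal of the regression AQR was at -0.012 and CWC27 at -0.080, and with the longest transcripts AQR was at 0.019. DDX46 reached 1.2-fold in TPM alone (-0.263), a scale with a median offset of -0.054 from the counts.

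Other splicing regulators had a median of -0.0011, and of 0.015 after removal of the regression. Of their 33 intervals 14 lay above 0 and 11 below, against 27.8% and 32.1% of all genes with at least 1000 counts. PTBP3, a repressor paralogous to PTBP1, had 15036 and 11554 counts (-0.26, -0.30 to -0.23), just short of 1.2-fold, and CELF1 had 15564 and 12462 counts (-0.20, -0.24 to -0.17). PTBP3 passed 1.2-fold with median-of-ratios scaling (-0.272), with library size scaling (-0.265) and in TPM (-0.28, or -0.23 without the median offset between TPM and counts), and was at -0.13 after removal of the regression. Nonsense-mediated decay, which removes the unproductive transcripts that many splicing factor genes give rise to, had a median of 0.0074. That median was 0.046 after removal of the regression and -0.0023 with median-of-ratios scaling. In this list the kinase SMG1 fell from 24648 to 18306 counts (-0.31, -0.34 to -0.28). EIF4A3, the helicase of the exon junction complex, rose from 8005 to 8876 counts (0.27, 0.22 to 0.31). SMG9 was at 0.21 (0.13 to 0.30), past 1.2-fold in TPM (0.29) but at 0.054 after removal of the regression. EIF4A3 passed 1.2-fold by little, and fell short of it with median-of-ratios scaling (0.256), after removal of the regression (0.25) and in TPM (0.11). SMG1 was at -0.24 after removal of the regression and at -0.12 with the longest transcripts in it, also short of 1.2-fold.

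**Figure D4:**
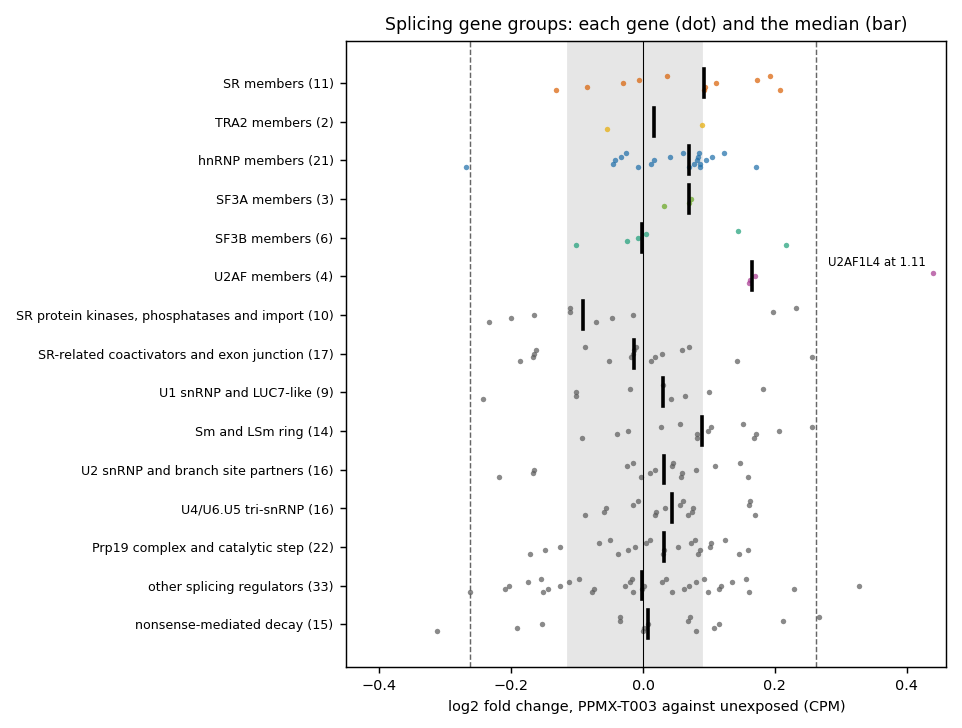
Log2 fold change in CPM, exposed against unexposed, of each gene (dots) and the median (bars) of the member subfamilies and of the other splicing lists, with the number of genes with at least 20 counts in parentheses. The grey band is the middle 50% of all genes with at least 1000 counts and the dashed lines mark 1.2-fold. U2AF1L4 is drawn at the right edge with its value.

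The TPM values carry a further measurement. A gene's TPM follows its reads divided by the length of the transcripts to which the authors' processing assigned them, so a change in counts that differs from the change in TPM corresponds to a change in that assigned length. Among the 3400 genes with at least 50 TPM in both libraries, TPM changes lay below count changes by a median of -0.054, and once this offset was removed the middle 50% of genes lay between -0.0063 and 0.0055. The 44 members at this level had quartiles of -0.0054 and 0.0044. Counts and TPM gave the same relative change to within 0.02 for 33 of the 44 members (75%), against 82.8% of all genes at this level.

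The members that differed most were HNRNPR, HNRNPA2B1, HNRNPC and SF3B1. HNRNPA2B1 went from 1795 to 1596 TPM, a log2 ratio of -0.17, while its counts differed by -0.0071, so that its assigned length was greater by 0.11 on the log2 scale in the exposed library. HNRNPC had a TPM ratio of -0.047 against 0.087 for its counts, and an assigned length greater by 0.079, and for SF3B1 it was greater by 0.065. HNRNPR was the reverse, with a TPM ratio of 0.026 against -0.046 for its counts, and an assigned length that changed by -0.13. Beyond 0.1 in size, after allowing for the rounding of TPM, lay 1 member longer and 1 shorter (4.55% of the members), against 1.97% of all genes at this level. The deposited table lists 24 RefSeq transcripts for HNRNPA2B1, 16 for HNRNPC and 17 for HNRNPR. Which transcripts gained or lost reads was not analysed here.

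In the other splicing lists, 117 genes had this level, and 2 were longer and 4 shorter by over 0.1. LSM6 changed by -0.41 and BCLAF1 by -0.30, so that the TPM of BCLAF1 went from 83 to 88 while its counts went from 12053 to 9903. PRPF4B changed by -0.13, and LUC7L3 and SRRM1, which encode speckle proteins with arginine and serine repeats, by 0.20 and 0.18. LSM6, LUC7L3 and SRRM1 were named after their values were seen. With the common offset removed, the TPM change was 0.080 for HNRNPR and 0.14 for BCLAF1, so that both still had opposite signs in counts and TPM, whereas HNRNPC was at 0.0071. EIF4A3, whose TPM change was 0.11, had an assigned length greater by 0.0996.

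**Figure D5:**
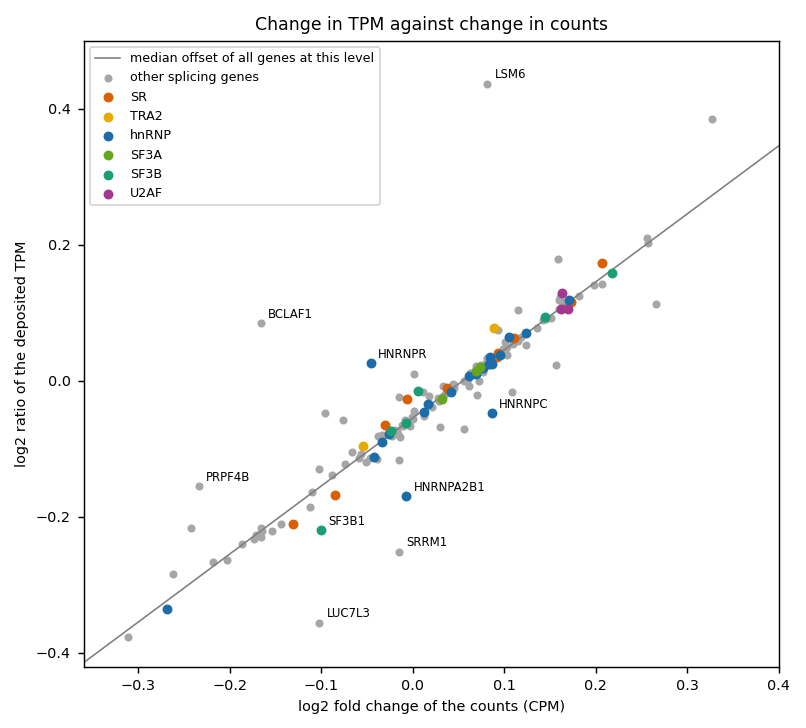
Log2 ratio of the deposited TPM against the log2 fold change of the counts, exposed against unexposed, for members (coloured by subfamily) and other splicing genes (grey) with at least 50 TPM in both libraries. The line marks the median offset of -0.054 of all 3400 genes at this level, below which lie HNRNPA2B1, HNRNPC and SF3B1 and above which lies HNRNPR.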

How the data were processed

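RNA of 1 unexposed and 1 exposed dish was compared. Per the labels and methods, the authors trimmed reads with Trimmomatic 0.38, mapped them to hg38 with HISAT2 2.2.0, quantified genes with StringTie 2.1.3b and named edgeR 3.17. The deposited count columns are whole reads per gene, written with commas, which were removed. FPKM and TPM, both deposited as whole numbers after rounding by the authors, were each treated as a score, and TPM served for levels. With 1 library for each condition no count model was fitted. TMM scaling, with trims of 30% for log ratios and 5% for levels, was written in Python 3.11.15 and tested on simulated data. Log2 CPM used a prior count of 2. The libraries were scipy 1.17.1, statsmodels 0.14.6, numpy 2.4.6 and pandas 2.3.3. Genes with at least 20 counts were tested. Intervals and the floor of 3 counts cover counting error only.

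Transcript length, GC content, exon sharing and coding sequence came from GENCODE release 29, and near-identical copies (at least 95% identity over 500 bases) from BLAST+ 2.17.0. Length and GC content were medians over the protein-coding transcripts of a gene, or over all its transcripts where it had none. With the longest transcripts, the length alone was replaced. Length and GC content were known for 91.8% of tested genes and for all 52 members.

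The members and lists were chosen with earlier results of these data known. Named were all SF3A, SF3B, U2AF, TRA2 and detected SR members. Of the hnRNPs these were each one past 1.2-fold, the 5 with the highest level and the 3 highest and 3 lowest by the interval bound nearest to 0, and of each other list the 3 changed most by that bound. The results of 3 genes that this rule names are not reported here. Other genes are named where a count or pair called for them. Alternatives were other scalings, prior counts, filters, protein-coding genes alone, TPM, the regression, fold thresholds and members without shared sequence. Matplotlib 3.10.9 drew the figures.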

Additional observations from a re-analysis of the deposited data

How the results depend on the processing

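No paired analysis was possible because there was 1 library for each condition. The number of members past 1.2-fold, 2 in the report, was 1 with upper-quartile scaling, where HNRNPLL no longer passed. The shares of all genes tested were then 12.9% higher and 11.7% lower. The number was 4 (all higher) with the length and GC regression removed, against shares of 8.82% and 10.2%. It was 2 (both higher) with the longest transcripts in the regression, against 8.26% and 10.5%. At 1.1-fold it was 11 (10 higher), against 24.0% and 25.2%, and at 1.5-fold 1 (higher), against 3.94% and 3.84%. It was 1 (lower) without members that share exons or have near-identical copies, against 12.2% and 12.5%. It was 1 (lower) among genes with at least 1000 counts, against 2.79% and 5.11%. Both of these leave out U2AF1L4. The last filter and the longest transcripts were chosen after seeing the data. The other scalings, prior counts and filters and TPM gave 1 higher and 1 lower, against 5.71% to 20.6% and 7.10% to 20.1%. The number of members beyond counting error stayed between 26 and 41 in all alternatives run, 26 being with 32 members tested. The median of all members, 0.073, was 0.019 with TPM, where the offset to the counts is -0.054, and between 0.061 and 0.085 otherwise. The log2 ratio of the members' summed level was -0.014 in TPM, a scale with that offset, and 0.030 as a share of all counts, a comparison also added after seeing the data. Beyond the fold thresholds, 29 named members had intervals outside 0. Their signs held under all scalings, prior counts and filters run. With TPM 3 changed sign, of which HNRNPR alone did so once the offset was removed, a step added after seeing the data. With the regression 4 changed sign and with the longest transcripts 6, and the cause was not tested. Depth limits U2AF1L4 most, as every other member's interval reached at most 0.090 to each side.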

Other observations

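Outside the protein-coding rule, 102 rows had a symbol of the same series. Of these, 101 were pseudogenes and 1 was HNRNPUL2-BSCL2, a readthrough gene listed as long non-coding RNA. They held 5769 counts without and 5802 with PPMX-T003, 36 of them had 0 counts in both libraries, and 18 had at least 20 counts. Among these 18, the interval lay above 0 for 6 and below 0 for 2, against 21.8% and 23.9% of all genes tested. HNRNPUL2-BSCL2 went from 160 to 270 counts, which is 0.86 on the log2 scale (0.58 to 1.16), while HNRNPUL2 had 22551 and 21694 counts (0.061, 0.034 to 0.088) and BSCL2 had 1094 and 1036 counts (0.039, -0.085 to 0.16). The summed counts of HNRNPUL2 and the readthrough gene differed by 0.069 (0.042 to 0.096).

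Among pseudogenes of HNRNPA1, HNRNPA1P35 had 540 and 608 counts (0.29, 0.12 to 0.46), HNRNPA1P12 had 312 and 345 counts (0.26, 0.037 to 0.49) and HNRNPA1P4 had 220 and 263 counts (0.37, 0.11 to 0.64). The 2 rows with intervals below 0 had few reads. HNRNPA1P39 had 22 and 5 counts (-1.68, -3.78 to -0.58) and HNRNPA1P77 had 19 and 6 counts (-1.30, -3.16 to -0.16). Few reads also lay behind HNRNPA3P5, with 18 and 34 counts (0.96, 0.17 to 1.95), and HNRNPKP4, with 5 and 16 counts (1.46, 0.28 to 3.599). The most abundant, HNRNPA1P7, had 1863 and 1782 counts (0.053, -0.041 to 0.15). Near U2AF1L4, PSENEN had 1285 and 1299 counts (0.13, 0.021 to 0.25) and IGFLR1 had 187 and 199 counts (0.20, -0.088 to 0.50). LIN37 had 209 and 218 counts (0.18, -0.10 to 0.46), KMT2B, the deepest of them, had 5022 and 4460 counts (-0.054, -0.11 to 0.0045), and HSPB6 had 2 and 0 counts. These genes were named after their values were seen.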
